A study of Mus musculus with 18 samples.

Results

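The data described here are the PU.1 ChIP-seq libraries of MEL cells, 4 of the 18 samples of the series. Their members are all peaks in the 4 lists that the authors deposited, 1 list per library, taken without any further threshold. The lists held 109995 peaks, which merged into 56051 regions when peaks that shared at least 1 bp were joined. A total of 7451 regions (13.3%) held a peak in all 4 lists, and 7126 of these held exactly 1 peak in each. The comparison asks how PU.1 binding across the genome differs between cells before and after erythroid induction.

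MEL is a mouse erythroleukemia line, blocked at an early erythroid stage, in which dimethyl sulfoxide (DMSO) switches on hemoglobin synthesis. The day 0 group was 2 libraries of untreated cells, and the day 5 group was 2 libraries of cells kept for 5 days in medium with 2% DMSO, most of which stained for hemoglobin per the labels. The labels call the replicates biological. They also state that the ChIP samples that did best by quantitative PCR were made into libraries, so the libraries are a selection. The labels list 1 input sample for each day, and neither was analysed here on its own. Positions are in the genome build mm9.

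PU.1 is a transcription factor of the ETS family, encoded by Sfpi1, and is needed for the myeloid and B lymphoid lineages. It binds short purine-rich sites with a GGAA core, often in open chromatin that it helps to keep open. In MEL cells an active Sfpi1 locus holds the cells in a proliferating, undifferentiated state, and PU.1 and the erythroid factor GATA1 oppose each other. In ChIP-seq, DNA bound by the factor is pulled down with an antibody and sequenced, and a peak is a stretch where fragments pile up above the local background.

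In the RNA libraries of the same study, Sfpi1 stood at 55.5 and 101 FPKM on day 0 and at 2.37 and 3.55 FPKM on day 5, so the days did not overlap. The erythroid markers Gata1, Klf1, Alas2 and both globin genes were present in all 4 RNA libraries, while the myeloid genes Lyz2, Mpo, Cd14 and Csf1r were listed at 0. The T cell gene Thy1 was at 5.57 and 2.04 FPKM on day 0 and listed at 0 on day 5. The day 0 PU.1 lists held 34590 peaks in replicate 1 and 46077 in replicate 2. The day 5 lists held 10714 and 18614 peaks. Both day 5 lists were shorter than both day 0 lists, but the day 5 replicates themselves differed by a wide margin. With 2 libraries against 2, an exact two-sided permutation test cannot give a p below 0.333, which is the value here. The same p of 0.333 holds for every measure below in which the days do not overlap. The p-values measure the spread between these libraries only.

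Fold enrichment is the peak caller's ratio of fragments at the summit to local background, and it was compared over the 7451 regions present in all 4 lists. On day 0 its median was 16.7 in replicate 1 and 16.4 in replicate 2. On day 5 it was 6.47 in replicate 1 and 9.26 in replicate 2. The day 5 values were lower in both replicates, and day 5 replicate 1 was the lowest. The median change, day 5 minus day 0, was −0.95 on the log2 scale, with an interquartile range of −1.44 to −0.48. In the 4 pairings of a day 5 with a day 0 library the median change was −1.22, −1.21, −0.72 and −0.72, the larger decreases being those against day 5 replicate 1. The typical absolute difference between replicates was 0.23 on day 0 and 0.51 on day 5, on the same scale. A region enters this set only with a peak in both day 5 lists, so sites with no day 5 peak are not among them.

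Of the 7451 regions, 4121 (55.3%) fell and 47 (0.631%) rose (limma, Benjamini-Hochberg adjusted p under 0.05). Both day 5 values lay below both day 0 values in 5626 regions (75.5%), and above both in 192 (2.58%). Folds of the 2 days are not scaled to each other, so the split depends on that scaling. After quantile normalization, which sets the 4 distributions equal, 764 regions (10.3%) were lower and 718 (9.64%) higher. After centring each library on its median, 927 (12.4%) were lower and 1322 (17.7%) higher. These scaled calls say which regions changed more or less than the typical shared region, which itself stood at −0.95. Without day 0 replicate 1 or day 0 replicate 2, leaving a lone day 0 library, limma called 980 or 965 regions lower and 6 or 14 higher. Without day 5 replicate 1 it called 152 higher.

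**Figure D1:**
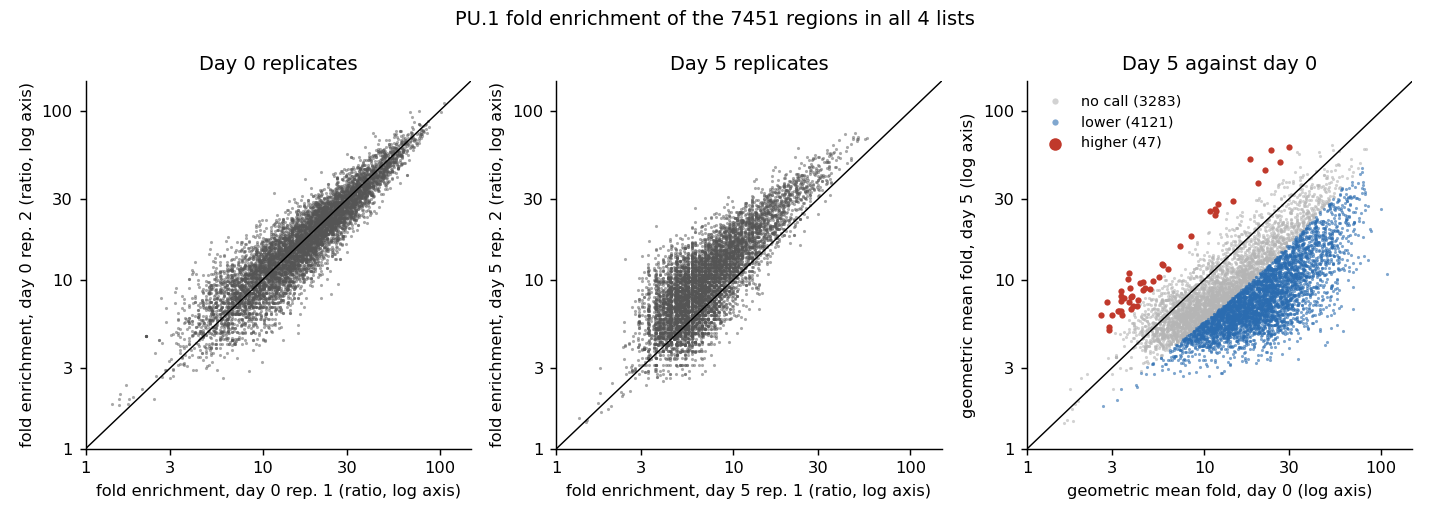
Fold enrichment (ratio to background, log axes) of the 7451 regions in all 4 lists, 1 point per region, with the line of equal values. The first panel sets the day 0 replicates against each other, the second the day 5 replicates, and the third the geometric mean of each day, coloured by limma call (4121 lower, 47 higher).

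The median change was negative at every level of enrichment and nearest to 0 in the weakest regions. Regions were split into quintiles by their mean fold over all 4 libraries. The median log2 change was −0.46 in the lowest quintile, −0.91 in the second, −1.18 in the third, −1.22 in the fourth and −1.07 in the highest. In the highest quintile the median folds were 37.6 and 36.8 on day 0 against 13.8 and 21.5 on day 5. Of that quintile 61.7% fell and 0.537% rose, beside 28.8% and 1.95% of the lowest quintile. The lowest quintile sits near the detection limit of the lists, where a large decrease would have removed the region. Across the shared regions log2 fold correlated at 0.915 between the day 0 replicates, at 0.819 between the day 5 replicates and at 0.593 to 0.635 between days. Regions are not independent replicates, and these correlations describe the 4 lists.

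The ranking of the strongest sites differed between days by more than between replicates. Of the 500 strongest peaks of each list, 405 were shared by the day 0 replicates and 390 by the day 5 replicates. A day 0 list and a day 5 list shared 276 to 286 of their 500 strongest.

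The number of fragments over each summit and the background expected there were solved from the deposited fold and −log10 p, under an assumed form of both. The fold was taken as (pileup + 1) divided by (background + 1), which sets the background for any pileup, so the fold is matched by construction. The pileup was the whole number, times a scale for the list, that brought a Poisson tail at that background nearest to the −log10 p. Only this p was checked, and it matched within a tolerance of 0.002 for 100% of peaks in each list. In day 0 replicate 1 this required a pileup scaled by 0.952, a value fitted to the list, as 5.1% of its peaks matched unscaled. The added 1 shrinks folds, and does so more where the background is low. The lowest background shared by a sizeable group of peaks in a list is here called the genome background. It was 1.27, 1.04, 0.807 and 0.865 fragments in the order day 0 replicates 1 and 2, then day 5 replicates 1 and 2. At this value lay 41.6%, 46.1%, 26.3% and 29.3% of peaks in the same order. Per kb of the shortest peak width of each list, and with the scaling undone, it was 8.21, 7.36, 8.15 and 8.82. It was thus of similar size in all 4 libraries.

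At the shared regions the median summit pileup was 48.6 and 43 fragments in the day 0 replicates, against 13 and 20 in those of day 5. Taken over local background with nothing added, the median log2 change was −0.78, with 2953 regions (39.6%) lower and 171 (2.29%) higher in limma. Taken over the genome background it was −0.86, with 3824 regions (51.3%) lower and 4 (0.0537%) higher. The median decrease was thus of similar size with and without the local background, while the count of increases was not.

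The 47 regions that rose in fold differed from the rest in their background. Their median pileup was 23.8 and 24 fragments on day 0, against 16 and 23 fragments on day 5. Their median local background was 6 and 4.70 fragments on day 0, against 0.872 and 0.945 fragments on day 5. A local background above 2 times the genome background was found at 44 and 43 of the 47 on day 0, beside 26.7% and 22.3% of all shared regions. On day 5 it was found at 8 and 7 of them, beside 28.6% and 27.7% of all. All 47 were called higher with pileup over local background, but over the genome background 17 of the 47 were higher, of which 2 were called, and 2 others were called lower. Regions that fell showed the opposite tilt. A background above 2 times the genome background was found at 15.4% and 11.6% of the 4121 on day 0 and at 35.2% and 34.2% on day 5. In the 2584 regions with a background of at most 1.5 times the genome background in all 4 libraries, 1742 (67.4%) were lower and 0 higher in limma, and 1848 had an unadjusted p under 0.05 in either direction. Fold enrichment contains the background, so these values describe the calls and are no separate test of them.

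Local backgrounds correlated at 0.936 between the day 0 replicates and at 0.904 between the day 5 replicates, but at 0.490 to 0.509 between days, on the log2 scale across the shared regions. The replicates of a day may share 1 input, and an error of that input would then not appear in the spread between them. The part of the input in the called changes was not tested.

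**Figure D2:**
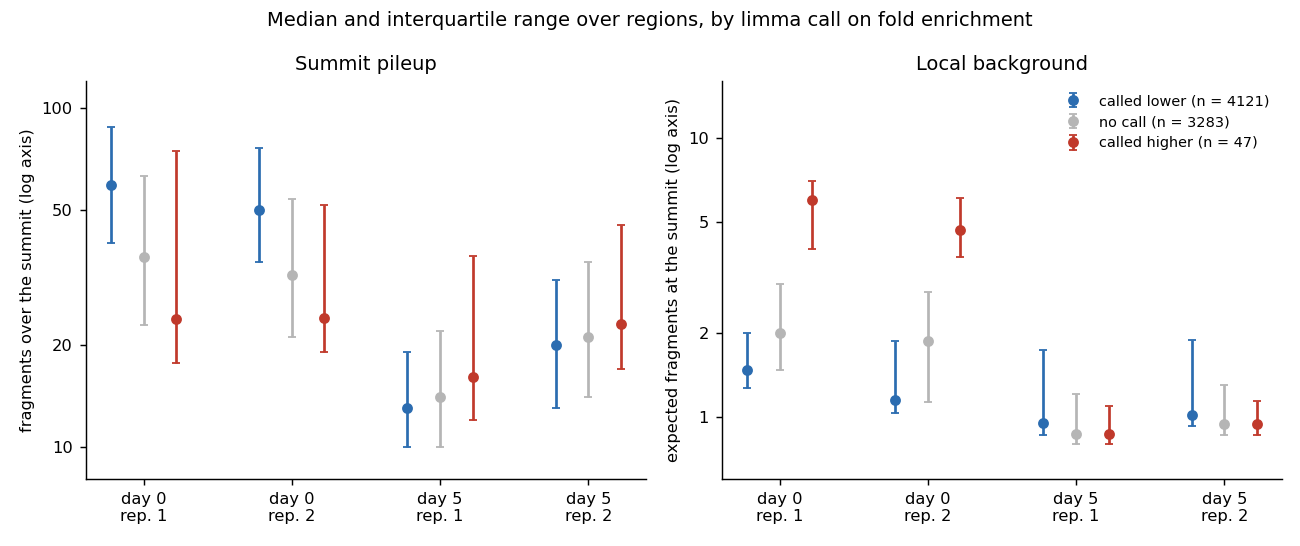
Summit pileup and local background (fragments, log axes) of the shared regions in each library, as the median with the interquartile range, grouped by limma call on fold enrichment. The 47 regions called higher (red) had a background of 6 and 4.70 on day 0 against 0.872 and 0.945 on day 5, while the interquartile ranges of their pileups overlapped between days.

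The 6 largest decreases among regions with a mean fold of at least 10 on 1 or both days had day 0 folds of 42.4 to 72.5 and day 5 folds of 3.34 to 7.93. Here and below, a DNase hypersensitive site of a day is one in the authors' list intersected over both replicates of that day. All 6 lay in such a site on day 0, and 2 of them on day 5. In the single-replicate lists of day 5, chr4:131803380-131803838 also had sites in both (scores of 4.33 and 2.73) and chr2:78900367-78900790 had one in replicate 2 (2.90). The largest, at chr14:49639422-49639861, had a fold of 63.2 and 58.9 on day 0 and of 4.33 and 5.77 on day 5. The log2 change was −3.61 ± 0.41 (SE, limma adjusted p = 1.31e-11). There the pileup went from 143 and 119 fragments to 26 and 32, while the background went from 1.27 and 1.04 to 5.23 and 4.72, so both terms moved the fold down. Over the genome background the change was −1.71. The authors' DNase score of this site was 81.0 and 92.6 on day 0 against 4.97 and 3.38 on day 5.

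At chr3:79647868-79648333 the fold was 66.1 and 72.5 on day 0 against 5.64 and 7.93 on day 5, a log2 change of −3.37. The background there was similar on the 2 days, 1.64 and 1.33 against 1.13 and 1.40, and the pileup went from 173 and 168 to 11 and 18 fragments. At chr4:131803380-131803838 the fold was 56.1 and 56.0 on day 0 against 4.98 and 5.90 on day 5. All 4 libraries stood at their genome background in this region, and the pileup was 127 and 113 on day 0 against 8 and 10 on day 5. The region at chr16:55811897-55812305 had the same pattern, with 123 and 100 fragments against 8 and 9. The other decreases were at chr9:71556943-71557451 and chr2:78900367-78900790, with log2 changes of −3.55 and −3.52 and a background that was higher on day 5. All 6 were also called lower over the genome background and after quantile normalization, and their changes stayed negative with each library left out in turn. They were chosen as the largest decreases in these same 4 libraries, so this partly restates the choice and is no separate test.

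The 6 largest increases, chosen in the same way, had log2 changes of 1.23 to 1.53 and limma adjusted p of 0.000231 to 0.00861. In all 6 the day 0 background was 2.82 to 11 fragments and the day 5 background 0.807 to 1.12. At chr3:120945803-120946241 the fold was 18.7 and 17.6 on day 0 against 39.5 and 67.4 on day 5, yet the pileup was 186 and 149 fragments on day 0 against 73 and 130 on day 5. The background there was 9 and 7.52 on day 0 against 0.872 and 0.945 on day 5. At chr17:29497646-29498087 the fold was 23.3 and 24.1 on day 0 against 49.7 and 68.4 on day 5, with pileups of 186 and 159 against 92 and 132. Both sites had a lower unscaled pileup in each day 5 library than in each day 0 library, and a higher ratio. The pileups are not scaled to the genome background, which was 1.27 and 1.04 on day 0 against 0.807 and 0.865 on day 5. Over that background the changes were −0.31 and −0.18 and not called (limma adjusted p of 0.396 and 0.625), so a loss of fragments is not shown at either site. The largest increase, at chr3:36146456-36146703, had a fold of 3.02 and 4.71 on day 0 and of 8.86 and 13.4 on day 5, with pileups of 17.1 and 17 against 15 and 24.

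Over the genome background, 4 of these 6 regions had a negative change (−0.61 to −0.18) and 2 a positive one (0.50 at chr15:51823279-51823496 and 0.61 at chr3:36146456-36146703), and none of the 6 passed limma (adjusted p of 0.134 to 0.625). On fold enrichment itself, none of the 6 passed without day 0 replicate 1 (limma adjusted p of 0.103 to 0.34), and 4 of the 6 did not pass without day 0 replicate 2 (0.163 to 0.26). With −log10 p in place of fold, 4 of the 6 did not pass either (changes of −0.20 to 0.19, limma adjusted p of 0.749 to 0.904). Of the 6, 2 lay in no DNase site on either day, chr3:36146456-36146703 and chr15:64511082-64511368. The region at chr15:11964057-11964420 lay in a DNase site, a footprint and a connected vertex of the contact map on both days.

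Among the 100 regions with the highest mean fold, the 4 that changed least had log2 changes of −0.06 to 0.15, with an SE of 0.33 to 0.36. At chr5:116074022-116074446 the fold was 57.6 and 57.8 on day 0 against 47.5 and 70.4 on day 5, so the day 5 values lay on both sides of the day 0 values. At chr11:30191183-30191639 the fold was 48.2 and 38.3 on day 0 against 38.2 and 50.9 on day 5, with all 4 libraries at their genome background. The others were chr3:86121512-86121938 and chr1:136616206-136616700. A change of 0 with this SE does not exclude a moderate change in either direction. These 4 were chosen for a change near 0 while the typical shared region stood at −0.95, so the choice itself sets them above it on day 5. After quantile normalization their changes were 0.76 to 0.95, which restates that choice and is no separate test. Their DNase sites had lower scores on day 5 than on day 0, for example 128 and 113 against 19.8 and 15.2 at chr5:116074022-116074446. The scores are not scaled between days, and lower day 5 scores were general. Over the 5654 shared regions with a site in all 4 DNase lists the median log2 change was −1.48.

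**Figure D3:**
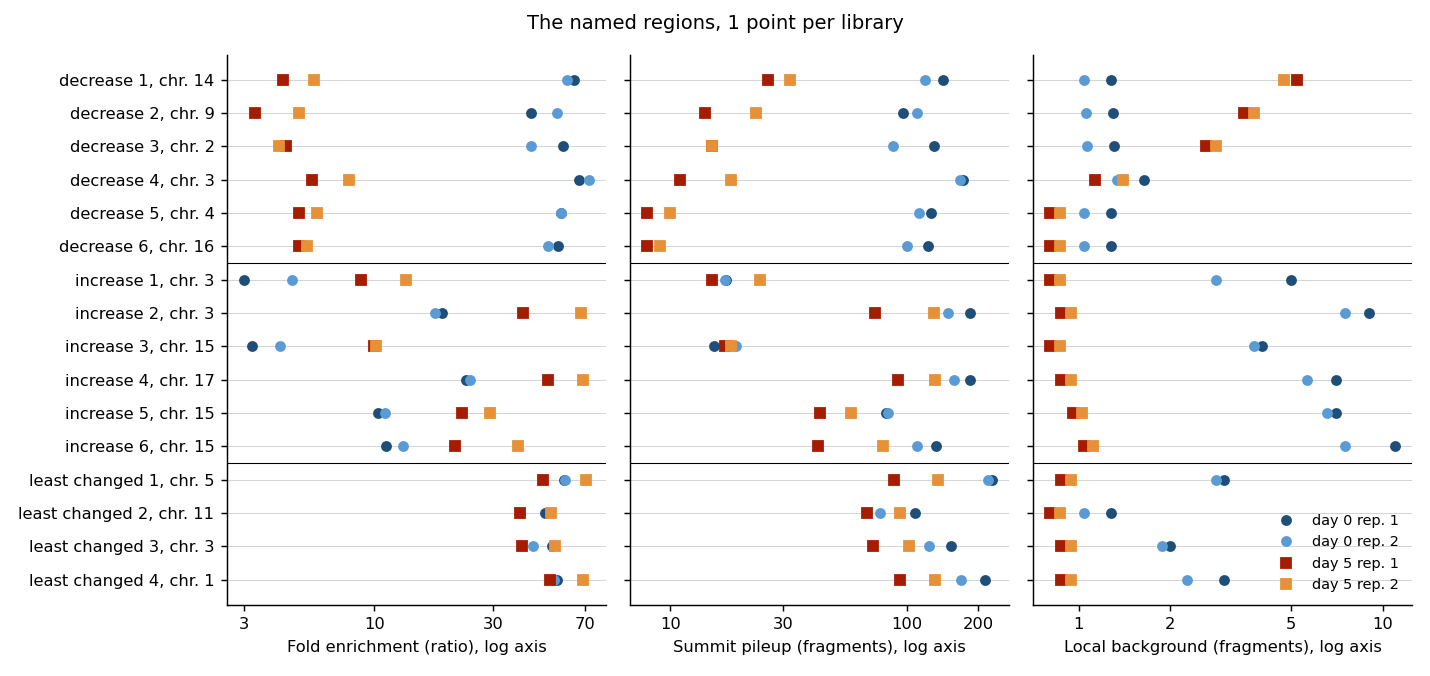
Fold enrichment (ratio), summit pileup and local background (fragments), all on log axes, of the 6 largest decreases, 6 largest increases and 4 least changed of the strongest regions, 1 point per library. Pileups of the 6 decreases separate the days widely, while the day 0 backgrounds of the 6 increases lie at 2.82 to 11 and their day 5 backgrounds at 0.807 to 1.12.

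Presence in the lists showed the same direction as enrichment. A peak in both day 0 lists was found at 28875 regions. Of these 14547 had no day 5 peak, 6877 had a peak in 1 day 5 list and 7451 in both. Thus 49.6% (95% exact binomial interval 49.0% to 50.2%, counting error only) had a peak in either day 5 list. The share was 28.4% for day 5 replicate 1 and 47.0% for replicate 2. The opposite pattern, both day 5 lists and no day 0 list, was found at 194 regions, 0.346% of all. A single day 0 list was the only source of 20547 regions, of which 15416 came from replicate 2, the longest list, and a single day 5 list of 4352. Presence in a list depends on its length, so no test between days was made. With each list cut to its 10714 strongest peaks, 8913 regions held a peak in both day 0 lists, and 78.5% of these had a day 5 peak. The cut kept only the strongest day 0 peaks, so this share is not over the same regions as the 49.6%.

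Retention was higher at higher day 0 enrichment. In deciles of mean day 0 fold, the share with a peak in either day 5 list was 23.6% in the lowest decile, at a median fold of 4.39, and 21.0% in the second. It was 37.6% in the fifth decile, 71.7% in the eighth and 97.5% in the highest, at a median fold of 29.7. The second decile was the lowest in each day 5 library too, with a range from 6.65% to 88.8% for replicate 1 and from 18.8% to 96.8% for replicate 2. Regions absent from both day 5 lists had median day 0 folds of 6.68 and 6.38, and regions kept in both had 16.7 and 16.4.

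**Figure D4:**
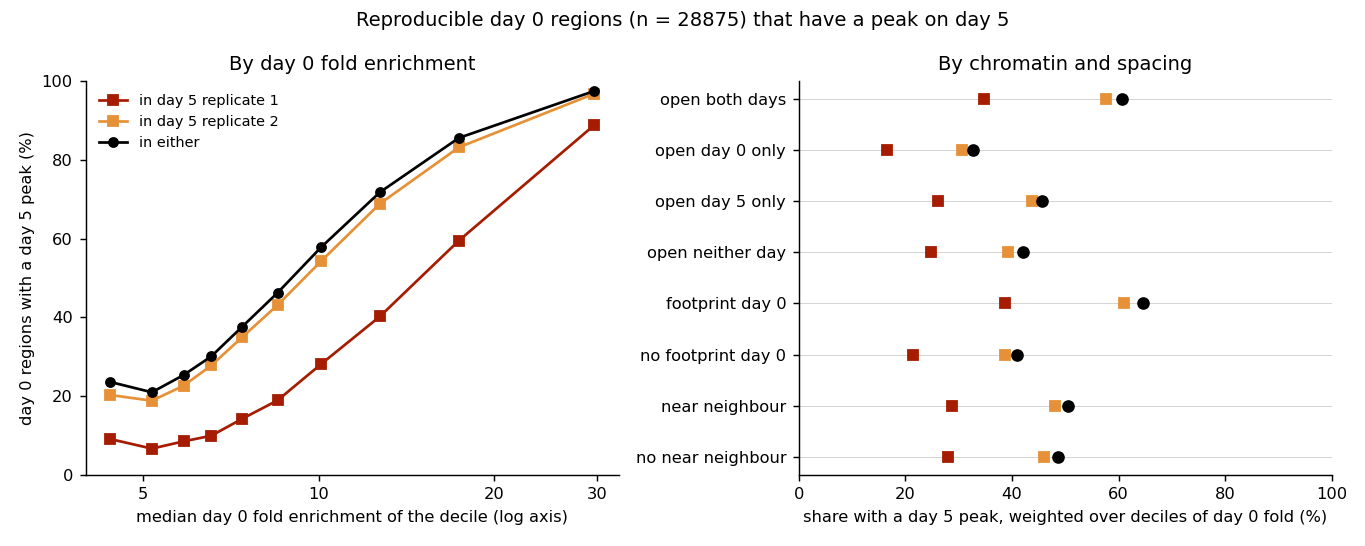
Share (%) of the 28875 reproducible day 0 regions with a peak in day 5 replicate 1, replicate 2 or either. The first panel plots deciles of day 0 fold (log axis), from 23.6% to 97.5% for either list. The second panel gives groups by DNase site, DNase footprint and a neighbour within 10 kb, after weighting each group to the same mix of deciles.

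A small number of strong day 0 sites had no day 5 peak. The 4 with the highest mean fold were chr13:114590485-114590891 (41.1 and 35.3), chr1:80643193-80643531 (36.4 and 36.3), chr14:27446156-27446489 (37.7 and 33.9) and chr15:86194273-86194714 (33.5 and 35.8). All 4 lay in a day 0 DNase site, and the first also lay in a day 5 site of the intersected list. The third had a site in the list of day 5 replicate 1 alone, with a score of 2.79. The 4 strongest sites with both day 5 lists and no day 0 list were weaker. They were chr7:89500745-89500917 (8.01 and 13.9), chr2:6997294-6997435 (6.94 and 10.3), chr9:15323372-15323611 (6.39 and 10.8) and chr17:51207942-51208272 (4.98 and 12.8). Their pileups were 8 to 14 fragments in replicate 1 and 19 to 26 in replicate 2. None of these 4 lay in a DNase site on either day.

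The DNase-seq libraries of the same cells were a readout that the peak lists did not use. DNase hypersensitive sites are stretches where regulatory DNA is accessible, and a footprint within one marks bases protected by a bound protein. The share of PU.1 peaks in a DNase site of the same day was 68.5% and 70.7% on day 0 against 67.7% and 64.6% on day 5. In a site of the other day lay 51.3% and 54.0% of day 0 peaks, against 78.0% and 75.6% of day 5 peaks. The day 5 peaks thus lay in a day 0 site more often than in a day 5 site. Of the regions in all 4 PU.1 lists, 87.6% lay in a day 0 site and 76.3% in a day 5 site. Of those in both day 0 lists and no day 5 list, 65.0% lay in a day 0 site and 41.4% in a day 5 site. For regions of a single day 0 list alone these shares were 56.2% and 42.8%. Of the 194 in both day 5 lists and no day 0 list, 49.0% lay in a day 0 site and 48.5% in a day 5 site. Between the days this last count moved by 1 region, from 95 to 94 of the 194. Overlap with a list of DNase sites depends on the length of that list. The share of all day 0 DNase sites that were missing on day 5 is not given here, so these overlaps lack that baseline.

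PU.1 enrichment was lower on day 5 to a greater extent where the DNase site was called on day 0 only. The 898 shared regions of this kind had a median log2 change of −1.40, with median folds of 21.4 and 20.6 on day 0 against 6.11 and 8.23 on day 5, and 79.4% of them fell. The 5627 regions open on both days had a median change of −0.89, with folds of 16.4 and 16.7 against 6.64 and 9.92, and 51.7% fell. The 869 regions open on neither day had a median change of −0.91. Averaged over quintiles of mean fold, the changes were −1.34, −0.91 and −0.95 in the same order. Over the genome background they were −1.36, −0.80 and −0.84. The regions open on day 0 only had the largest median decrease of the 3 groups by each of these measures.

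The 1309 shared regions with a footprint on day 0 only had a median log2 change of −1.36, beside −0.73 for the 3628 with a footprint on both days and −1.08 for the 2417 with one on neither day. Their day 0 folds differed, with medians of 24.3 and 24.1 for a footprint on day 0 only, 14.0 and 14.9 on both days, and 17 and 15.3 on neither. Averaged over quintiles of mean fold, the changes were −1.22, −0.77 and −1.11 in the same order as the counts. Over the genome background they were −1.30, −0.66 and −1.02. The 1667 shared regions in a vertex with an edge in the RNA polymerase II contact map on either day had a median change of −0.73 and 41.8% of them fell. The 5784 regions outside such a vertex had −1.02, and 59.2% fell. Their median day 0 folds differed too, 13.6 and 14.5 inside against 17.6 and 17.1 outside. Over the genome background the medians were −0.66 inside and −0.93 outside. Regions of one library share their source, so these group differences are descriptions without a test.

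Where a DNase site with a score was present in all 4 DNase lists, the PU.1 change could be set beside the DNase change. Over these 5654 regions the changes correlated at 0.409 (Pearson) and 0.410 (Spearman). In the quintile of regions with the largest DNase decrease the median PU.1 change was −1.43. It was −1.09, −0.83, −0.63 and −0.59 in the next quintiles. With single replicates the Spearman value was 0.317 to 0.385. The DNase scores were not scaled between days, and their own median log2 change was −1.48, so the order of regions can be read but not the level.

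Retention followed the same groups after matching on day 0 fold. The share of reproducible day 0 regions with a peak in either day 5 list was 63.7% for regions open on both days and 34.8% for those open on day 0 only. Weighted to the same mix of deciles these were 60.6% and 32.6%. Regions open on neither day had 31.1%, or 42.0% when weighted. Regions with a day 0 footprint had 69.4% and those without 36.0%, or 64.5% and 40.9% when weighted. The groups stood in the same order in each day 5 library.

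Peaks were narrower on day 5. The median width was 247 and 223 bp on day 0, against 141 and 145 bp on day 5. Over the shared regions it was 332 and 332 bp against 155 and 186 bp, a median log2 change of −0.96, and 6348 regions (85.2%) were narrower in limma. The shortest width of a list was also its most common one, 163 and 141 bp on day 0 against 99 and 98 bp on day 5. After division by the shortest width of each list the median log2 change was −0.34 and 238 regions (3.19%) were narrower in limma. Without day 0 replicate 1 or 2, 2160 or 1729 regions were narrower before that division. The sources used here do not give the fragment length that the caller used for each library, so the width of binding and the fragment length cannot be told apart. Regions with a larger decrease in fold also narrowed more, with a correlation of 0.375 across the shared regions. The 47 regions that rose in fold still had a median log2 width change of −0.58.

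**Figure D5:**
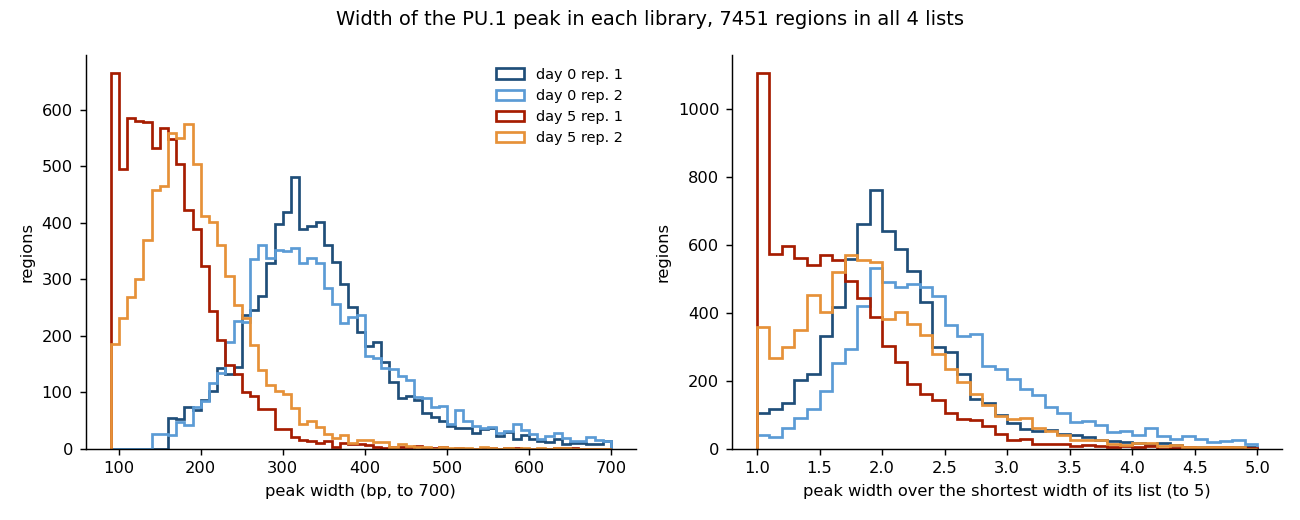
Peak width in each library over the 7451 shared regions, in bp and as a multiple of the shortest width of the list. Medians in bp are 332 and 332 on day 0 against 155 and 186 on day 5, and the distributions lie closer together after division.

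Summits lay about as far apart between days as between replicates. The median distance between the summits of a shared region was 9 bp between the day 0 replicates, 13 bp between the day 5 replicates and 11 to 14 bp between days. The signed median distance was 0 bp in all 6 pairs of libraries, so no pair was offset to one side. Distances over 100 bp occurred at 1.36% of regions between the day 0 replicates, 2.05% between the day 5 replicates and 1.95% to 2.27% between days. For the 1000 strongest regions the median was 4 to 6 bp in each pair. No shift between days beyond the distance between replicates was detected.

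Fewer day 5 peaks had a near neighbour when all peaks were counted, but not at equal numbers of peaks. The share of peaks with another summit of the same list within 10 kb was 53.3% and 63.7% on day 0 against 27.7% and 39.6% on day 5. With each list cut to its 10714 strongest peaks the shares were 28.1% and 30.7% on day 0 against 27.7% and 30.5% on day 5, and the days overlapped (exact two-sided permutation p = 0.667). Among reproducible day 0 regions, 380 clusters held 5 or more regions with gaps under 10 kb. In the typical cluster 50% of regions had a day 5 peak, while 15 clusters had one at every region and 10 at none. The changes of neighbouring shared regions correlated at 0.0890 over 896 pairs within 10 kb.

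The largest day 0 cluster spanned chr9:20920957-20973166 with 15 regions, 12 of them in a day 0 DNase site. A peak in either day 5 list was found at 10 of the 15, and the part at chr9:20951134-20973166 was also the second largest cluster of day 5, with 7 regions. The highest fold in this cluster was 34.3 and 36.7 on day 0 against 30.1 and 38.9 on day 5, so the highest folds of the days overlapped. The next day 0 clusters were chr3:95441175-95481434 with 13 regions, 9 of them with a day 5 peak, and chr3:88293598-88317658 with 12, of which 6 had one. In the latter the highest fold was 49.8 and 41.9 on day 0 against 9.40 and 19.3 on day 5.

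The largest day 5 cluster spanned 5.74 kb at chr17:39980060-39985795 and held 8 regions, 3 of them also in both day 0 lists, with no fold above 2.33 in any library. All 8 lay in a DNase site on both days. The third day 5 cluster, chr3:96255238-96263244, held 6 regions with folds up to 4.99, none of them in a DNase site. These peaks of low fold in tight arrays passed the caller's threshold and were kept, as no further filter was applied. Their pileups and backgrounds are not given here, so a low fold is not shown to be a low pileup.

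The share of peaks on each chromosome differed between the days by −0.533 to 0.643 percentage points. The libraries of the days did not overlap in this share on 18 of 21 chromosomes, and overlapped on 4, 12 and Y. The share of a list on chromosome X was 3.73% and 3.66% on day 0 against 3.11% and 3.22% on day 5. Chromosome 19 had 3.62% and 3.42% on day 0 against 4.27% and 4.05% on day 5. These 2 chromosomes showed the largest differences in share, and both were singled out after their values were seen. No chromosome passed a test, as the smallest exact permutation p of 0.333 becomes 0.389 after Benjamini-Hochberg adjustment over the chromosomes. With each list cut to its 10714 strongest peaks the differences were −0.112 and 0.121 percentage points, beside −0.533 and 0.643 with all peaks. The share of peaks divided by the share of DNase sites of the same day was 1.19 on day 0 and 1.11 on day 5 for chromosome X. It was 0.851 and 0.867 for chromosome 19.

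Retention was lowest on chromosome X and highest on chromosome 19, leaving out chromosome Y. The share of reproducible day 0 regions with a day 5 peak was 41.4% on chromosome X (interval 38.3% to 44.6%) and 56.4% on chromosome 19 (53.3% to 59.4%), while chromosome Y had 16 regions. Weighted to the same mix of day 0 folds these were 42.9% and 55.5%. The intervals hold counting error only. Both chromosomes are the extremes, picked after their values were seen, and a difference in retention between chromosomes was not tested. The median log2 change of shared regions lay between −1.07 and −0.85 on every chromosome.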

How the data were processed

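The authors deposited the PU.1 peaks of each library as a separate list, in which each peak has a fold ratio to background, a −log10 p and a summit offset in bp. The submitters' processing notes name Bowtie 1.0.0, MACS2 2.0.10 and the build mm9, while the sources used here give neither cutoffs nor controls. The lowest −log10 p in any list was 3.00. Read depth is unknown, as no counts accompany the lists. The authors' merged list per day carries an irreproducible discovery rate, a q-value, and a score, per the file headers, and was used only as a filter. DNase sites and footprints carry a score that the authors deposited without a definition. RNA values are the authors' FPKM per the deposited table.

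Peaks of the 4 lists were merged at 1 bp of overlap, and a list's value in a region was that of its peak with the highest fold. Log2 fold was compared by limma 3.58.1 in R 4.3.3 (eBayes with trend, two-sided) over all 7451 shared regions. Other steps used Python 3.11.15 with numpy 2.4.6, pandas 2.3.3, scipy 1.17.1 and matplotlib 3.10.9. In a test on simulated fold enrichment for day 5 against day 0, with 7451 regions, limma called 36 of 200 regions given a log2 change of 1 and 0 regions left unchanged. Pileup and background were solved from fold and p, an approach chosen after seeing the data, as were the alternatives that use them. Intervals are exact (Clopper-Pearson) at 95%.

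Regions were named by rule: the 6 largest decreases and 6 largest increases with no overlap between days and a mean fold of at least 10 on 1 or both days, the 4 strongest of each day's own, the 4 least changed of the 100 strongest, and the 3 largest clusters of each day. The members, lists and tests were chosen with earlier results of these data known. Genes, motifs and sequences at the regions are not reported here, since no genome or annotation of mm9 was used. Alternatives covered scaling, the measure, peak strength, the match between lists, the replicate block and each library left out.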

Additional observations from a re-analysis of the deposited data

How the results depend on the processing

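The shared regions called lower numbered 4121 and those called higher 47. The counts were 764 and 718 with quantile normalization, and 927 and 1322 with median centring. With −log10 p in place of fold, 8 were higher. At a −log10 p of at least 10, 2064 of 3713 regions were lower. At 50% reciprocal overlap 890 of 2599 were lower and 22 higher. In the 6418 shared regions that overlapped the authors' merged list of either day, 4143 were lower and 34 higher. Of the 4121 regions called lower 3955 overlapped such a list, and of the 47 called higher 28 did. In regions of at least 2 lists, with missing peaks set to the lowest fold, 17798 of 31152 were lower and 212 higher. Chosen after seeing the data, pileup over local background gave 171 higher, pileup over genome background 4, and low-background regions 1742 lower and 0 higher of 2584. Leaving out 1 library each gave 965 to 5409 lower and 6 to 152 higher, the lone library of a day being assumed to vary like the other day. The fewest lower were called without day 0 replicate 2 (965) or day 0 replicate 1 (980), and the most higher without day 5 replicate 1 (152). All 47 regions kept their direction in each of these fits, and 5, 10, 43 and 27 of them passed without day 0 replicates 1 and 2 and day 5 replicates 1 and 2.

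The median log2 change of −0.95 became 0.024 with quantile normalization and 0.15 with median centring, both of which set the level by construction. It was −1.55 with −log10 p, −0.68 at 50% reciprocal overlap and −1.84 in regions of at least 2 lists, and −1.20 to −0.71 with 1 library left out. With the replicate block, which has the replicate number as a term beside day, 3846 regions were lower and 43 higher. Same-numbered libraries did not deviate together (r = 0.0356), so the number is not shown to pair them.

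Retention of 49.6% became 78.5%, over 8913 instead of 28875 regions, with the same number of top peaks. It was 25.8% with both day 5 lists required and 28.4% to 47.0% with 1 library left out. The width difference of −92.0 bp became −166 bp with the same number of top peaks and −161.5 bp in the shared regions, and −104 to −80.0 bp with 1 library left out. Narrower regions numbered 238 after division by the shortest width, 6567 with the replicate block and 1729 to 6659 with 1 library left out, the fewest without day 0 replicate 2 (1729) or day 0 replicate 1 (2160). Summit distance between days exceeded that between replicates by 1.25 bp, and by −1 to 4.5 bp with 1 library left out. The difference in near neighbours of −24.9 percentage points became −0.313 with the same number of top peaks, and −30.8 to −18.9 with 1 library left out. For chromosome X the −0.533 points became −0.743 at a −log10 p of at least 10, −0.112 with the same number of top peaks and −0.588 to −0.478 with 1 library left out. For chromosome 19 the 0.643 points became 0.438, 0.121 and 0.528 to 0.757. The share in open chromatin was 69.6% on day 0 and became 72.0% and 76.6% with the DNase sites of replicate 1 or 2 alone and 67.2% with the summit itself inside a site. On day 5 it was 66.2% and became 71.45%, 69.8% and 63.4%. Sfpi1 on day 5 stood at 3.78% of its day 0 mean, and at 2.93% to 5.33% with 1 library left out.

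Of the named regions, the increases at chr3:120945803-120946241, chr17:29497646-29498087, chr15:64511082-64511368 and chr15:11964057-11964420 turned to −0.31, −0.18, −0.26 and −0.61 over the genome background, and the last to −0.20 with −log10 p. With −log10 p the other 3 of these were 0.077, 0.065 and 0.19, so that 4 of the 6 increases lost their call (limma adjusted p of 0.749 to 0.904). In regions of at least 2 lists the increases at chr3:36146456-36146703 and chr15:11964057-11964420 lost theirs (0.0503 and 0.0627). The least changed region chr3:86121512-86121938 turned from −0.06 to 0.82 with quantile normalization and 1.04 with median centring. Without day 0 replicate 1 none of the 6 increases passed limma (adjusted p of 0.103 to 0.34). The cause of these changes was not tested, apart from the level that the scalings set. Depth is unknown, 2 libraries per day cannot reach an exact p below 0.333, and the motif and gene list comparisons that had been planned were not run.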
